A study of Mus musculus with 4 samples.

Results

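The 10 genes that flank Kctd19 on mouse chromosome 8, from Elmo3 to Gfod2, were compared between Kctd19 ko and het juvenile testes. The 95% intervals of their fold changes, with 1 added to each expression level, all stayed short of 2-fold. Of these genes 0 were called different, against 0.218% of all tested genes. The 10 were Elmo3, Fhod1, Slc9a5, Plekhg4, Atp6v0d1, Agrp, Ctcf, Pard6a, Enkd1 and Gfod2. Each was found as the row of that exact symbol, 10 of the 55401 rows in each library's table. They are a chosen subset of the genes within about 0.35 Mb of Kctd19. The rule lists them by name and uses no expression value, and the other genes of that stretch, among them Lrrc36 beside the start of Kctd19, are described separately.

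RNA with a poly(A) tail was sequenced from whole testes, taken at postnatal day 14 (P14) from untreated mice on a C57BL/6J background. There were 2 libraries of genotype Kctd19-/- (ko), set against 2 of genotype Kctd19+/- (het), so every mouse carried the targeted allele on at least one chromosome and no wild type was compared. The series describes the replicates as biological. How the allele was made is not given in the sources used here, nor is whether animals were pooled, so p-values measure the spread between these libraries. Levels are in FPKM, fragments divided by exon length and by the library's depth, so that genes of unequal length can be compared.

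Genes next to a targeted locus are routinely examined because an engineered allele can alter regulatory DNA that a neighbour uses. Neighbouring promoters can also be physically shared, as happens where a pair of genes starts back to back on opposite strands. The region around Kctd19 is gene-dense and holds Ctcf, which encodes the zinc finger protein that, together with cohesin, sets the boundaries of chromatin loops. The other flanking genes have unrelated cellular functions, among them actin control, proton transport, cell polarity and centriole function.

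By GENCODE M21 on GRCm38, 49 annotated genes other than Kctd19, matched by unique symbol, lay within 0.35 Mb of it, the 10 flanking genes included. Kctd19 itself (minus strand) runs from 105382807 to 105413502. Plekhg4 overlaps its 3′ end tail to tail, by 56 exon bases on opposite strands, which is 1.02% of the exon bases of Plekhg4. Slc9a5 ends 12.9 kb away, Fhod1 34.9 kb away and Elmo3 72.05 kb away on the same side. On the other side the nearest ends lie 111.0 kb away for Atp6v0d1, 153.2 kb for Agrp, 223.1 kb for Ctcf, 287.6 kb for Pard6a, 290.1 kb for Enkd1 and 300.4 kb for Gfod2.

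**Figure D1:**
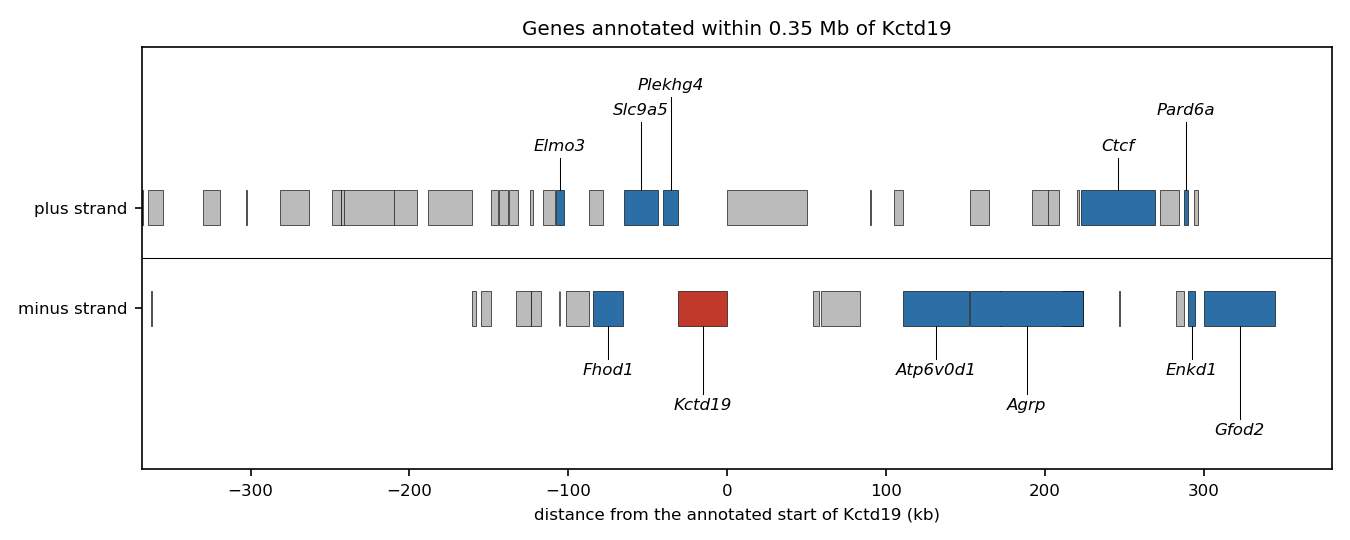
Genes annotated within 0.35 Mb of Kctd19 (bars, plus strand above and minus strand below), drawn to scale by distance from the annotated start of Kctd19 in kb. The 10 flanking genes are blue, Kctd19 is red and the other genes are grey. Elmo3, Fhod1, Slc9a5 and Plekhg4 lie to the left of Kctd19 and the other 6 flanking genes to its right.

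Several of these genes start beside a neighbour on the opposite strand. Fhod1 and Slc9a5 start 890 bp apart in GENCODE and 288 bp apart in RefSeq, so their promoter windows (250 bases before to 50 after the start) share 213 bases. RefSeq windows on GRCm38.p6 were found for 8 of the 10 genes. Printed here are the pair of overlapping windows, that of Atp6v0d1, whose ko libraries both lay above both het libraries, and that of Enkd1, whose ko libraries both lay below. Capitals mark the shared bases in the first pair and the E-box CACGTG in Atp6v0d1, and the Enkd1 window has none marked. The windows are chr8:105347921-105348220 (minus strand) for Fhod1, chr8:105348008-105348307 (plus strand) for Slc9a5, chr8:105566015-105566314 (minus strand) for Atp6v0d1 and chr8:105708159-105708458 (minus strand) for Enkd1.
Fhod1: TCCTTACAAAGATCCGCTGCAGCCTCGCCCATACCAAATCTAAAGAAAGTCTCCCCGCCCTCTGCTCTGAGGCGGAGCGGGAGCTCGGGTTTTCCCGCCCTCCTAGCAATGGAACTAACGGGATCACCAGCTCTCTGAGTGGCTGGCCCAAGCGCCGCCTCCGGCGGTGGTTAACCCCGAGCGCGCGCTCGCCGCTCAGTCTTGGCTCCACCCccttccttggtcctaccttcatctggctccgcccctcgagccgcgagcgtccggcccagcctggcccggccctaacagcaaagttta
Slc9a5: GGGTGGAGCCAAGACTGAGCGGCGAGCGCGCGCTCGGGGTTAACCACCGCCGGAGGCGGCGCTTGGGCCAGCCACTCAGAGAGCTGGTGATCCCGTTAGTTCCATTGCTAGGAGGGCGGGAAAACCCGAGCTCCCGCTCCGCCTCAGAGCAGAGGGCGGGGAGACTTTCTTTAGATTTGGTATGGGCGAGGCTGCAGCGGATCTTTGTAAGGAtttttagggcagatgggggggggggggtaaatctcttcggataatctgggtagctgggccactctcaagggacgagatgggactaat
Atp6v0d1: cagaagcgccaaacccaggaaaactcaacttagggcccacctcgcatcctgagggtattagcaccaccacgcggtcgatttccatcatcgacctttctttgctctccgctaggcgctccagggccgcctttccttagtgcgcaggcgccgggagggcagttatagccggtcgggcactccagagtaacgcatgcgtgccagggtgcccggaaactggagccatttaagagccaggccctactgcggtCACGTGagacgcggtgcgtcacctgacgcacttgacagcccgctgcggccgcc
Enkd1: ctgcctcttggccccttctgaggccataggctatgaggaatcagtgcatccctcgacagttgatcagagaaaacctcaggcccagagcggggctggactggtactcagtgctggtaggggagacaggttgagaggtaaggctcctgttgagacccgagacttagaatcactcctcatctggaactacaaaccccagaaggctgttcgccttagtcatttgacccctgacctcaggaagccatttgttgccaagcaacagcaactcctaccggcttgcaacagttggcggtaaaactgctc
Each is written 5′ to 3′ along its own gene, so the capitals of Fhod1 and Slc9a5 are the same DNA read on opposite strands. Over the 9 windows of the 8 genes, CACGTG was present in that of Atp6v0d1 and in 1 of the 2 windows of Pard6a, against 7.15% of all 32851 promoter windows. The GC box GGGCGG, searched on both strands like every motif here, was present in 6 of the 9, namely those of Fhod1, Slc9a5, Ctcf and Gfod2 and both of Pard6a, against 35.7% of all windows. The letters TATAAA were in 0 of the 9 windows (13.6% of all windows). CCAAT was in 1, the second window of Pard6a (37.4% of all windows). The Ctcf window was the richest of the 9 in G and C, at 75.3%, and that of Enkd1 the poorest, at 54.0%, beside a median of 52.7% over all windows.

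The flanking genes were all transcribed in these testes, at levels from 3.55 to 32.5 FPKM on average. Over the 4 libraries Atp6v0d1 averaged 32.5 FPKM, Ctcf 19.5 FPKM and Plekhg4 8.47 FPKM, and the ranges of these 3 over libraries did not overlap with each other or with any lower gene. The remaining 7 averaged between 5.34 FPKM (Fhod1) and 3.55 FPKM (Agrp), and each overlapped in range with the next in that order: Fhod1, Elmo3, Enkd1, Gfod2, Slc9a5, Pard6a, Agrp. All 10 passed the filter of a mean of at least 1 FPKM, which kept 17905 genes. Among those genes Atp6v0d1 stood at percentile 91.5 of level and Agrp at percentile 31.8. Reads behind a value ran from 47 (Agrp, het replicate 2) to 1847 (Ctcf, ko replicate 1), so counting error is widest for Agrp and Pard6a.

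**Figure D2:**
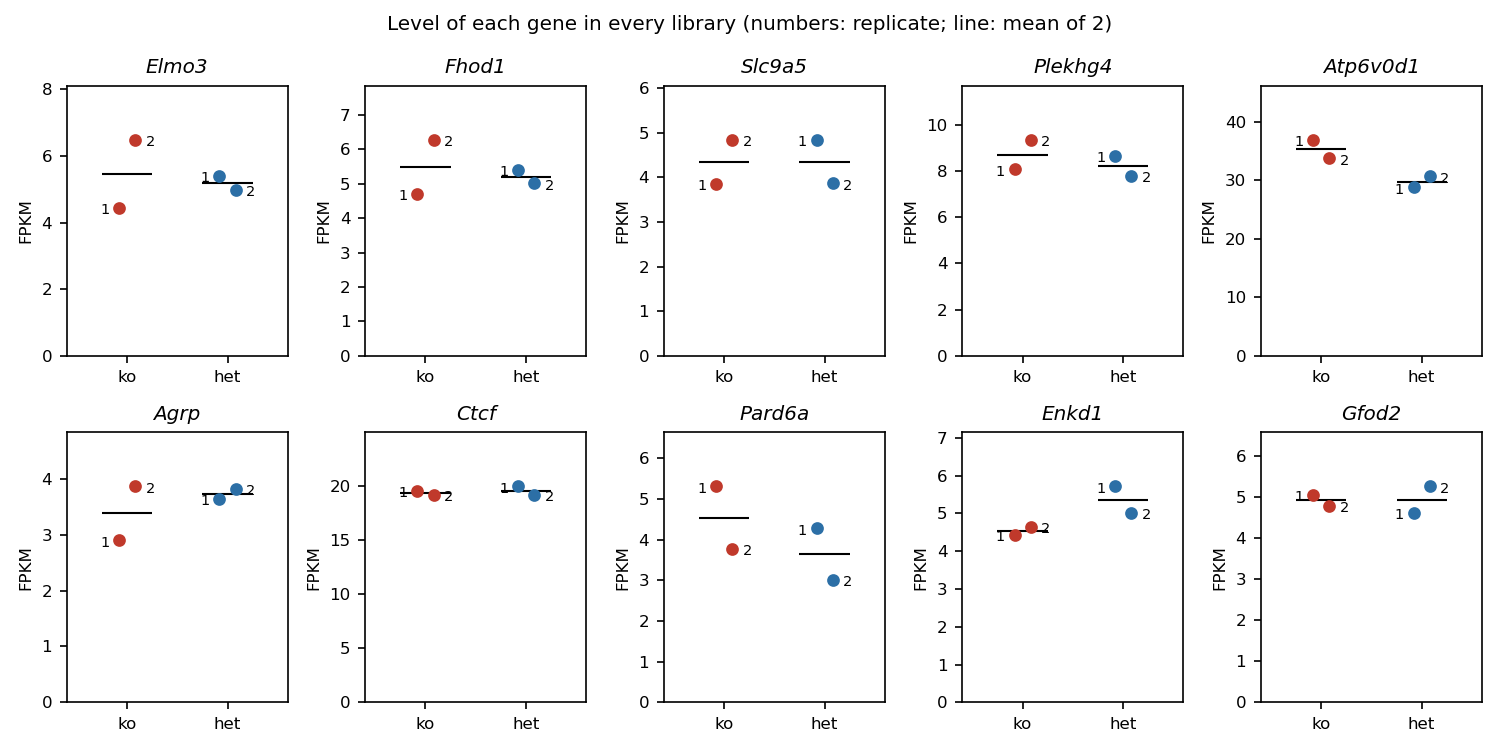
FPKM of each flanking gene in every library (vertical axes start at 0). Red points are ko, blue points are het, the numbers are the replicates and the line is the mean of 2 libraries. Both ko points lie above both het points for Atp6v0d1 and below them for Enkd1, and in the other 8 genes the groups overlap.

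Limma on log2(FPKM + 1) called 0 of the 10 flanking genes after Benjamini-Hochberg adjustment over all tested genes, against 0.218% of all genes called in either direction (0.207% higher in ko and 0.0112% lower). At an unadjusted p under 0.05 there was 1 of the 10, Atp6v0d1, against 9.31% of all tested genes. Limma's voom on whole reads also called 0 of the 10 (1.39% of all genes). At an unadjusted p under 0.05 voom had 1 of the 10, again Atp6v0d1, against 1911 of the 17446 genes it tested. Both ko libraries exceeded both het libraries in 1 gene and lay below them in 1, against 22.1% and 19.7% of all tested genes. Groups without overlap were thus found in 2 of the 10 flanking genes and in 41.8% of all tested genes. The median log2 fold change was 0.021 over the 10 genes and 0.0095 over all tested genes. The 95% limma intervals of the 10 fold changes (on the FPKM + 1 scale) lay between 0.701 and 1.74, so none reached a 2-fold change in either direction. Adjusted over all tested genes (Benjamini-Hochberg), the p-values of the 10 ran from 0.529 (Atp6v0d1) to 0.997 (Slc9a5 and Gfod2) in limma. On the voom scale the interval ends lay between -0.82 and 0.89 in log2. With 2 against 2 libraries an exact permutation test cannot give a two-sided p below 0.333, and Atp6v0d1 and Enkd1 were the genes at that floor.

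Kctd19 stood at 12.8 and 15.6 FPKM in the ko libraries and at 29.7 and 18.2 FPKM in the het libraries. The log2 fold change of -0.69 (SE 0.25, 95% interval -1.33 to -0.036) was not called (limma, unadjusted p = 0.0422, Benjamini-Hochberg adjusted p = 0.529). Voom on whole reads gave -0.74 (95% interval -1.14 to -0.34), also not called (voom, unadjusted p = 0.00146, Benjamini-Hochberg adjusted p = 0.0774). Both ko libraries were below both het libraries. The het libraries differed between themselves by 0.68 in log2, about as much as the genotypes did. These totals over all exons do not test the genotype labels unless the allele removes most of the mRNA.

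Closest to Kctd19 on the low-coordinate side, regulators of actin and small GTPases and an ion exchanger gave fold changes near 1. Plekhg4 (105373274 to 105382862, plus strand), a Dbl-family exchange factor for small GTPases, stood at 8.07 and 9.34 FPKM in ko and at 8.67 and 7.79 FPKM in het. The groups overlapped, and the log2 fold change was 0.07 (SE 0.11, 95% interval -0.22 to 0.36). The highest Plekhg4 library was ko replicate 2, whereas the highest Kctd19 library was het replicate 1.

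Slc9a5 (105348843 to 105369881, plus strand) encodes a sodium-proton exchanger best known from neurons. It stood at 3.85 and 4.83 FPKM in ko and at 4.84 and 3.86 FPKM in het, so the groups had almost the same pair of values. Its log2 fold change was -0.0024 (SE 0.16, 95% interval -0.41 to 0.41).

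Fhod1 (105329163 to 105347953, minus strand), a formin that organises actin filaments, stood at 4.70 and 6.26 FPKM in ko against 5.40 and 5.01 FPKM in het. The ko libraries lay on either side of both het libraries, and the log2 fold change was 0.05 (SE 0.15, 95% interval -0.34 to 0.44). Its exons share 116 bases with Tmem208 on the opposite strand, 2.49% of the exon length.

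Elmo3 (105305601 to 105310760, plus strand) belongs to the engulfment and cell motility family, whose proteins pair with Dock proteins to activate Rac. It stood at 4.45 and 6.48 FPKM in ko and at 5.41 and 4.98 FPKM in het. Again the ko libraries flanked the het libraries, with a log2 fold change of 0.04 (SE 0.18, 95% interval -0.42 to 0.51).

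These 4 genes shared a pattern between replicates rather than between genotypes. All 4 were higher in ko replicate 2 than in ko replicate 1, by 0.19 (Plekhg4), 0.27 (Slc9a5), 0.35 (Fhod1) and 0.46 (Elmo3) in log2(FPKM + 1), against a median of -0.03 over all tested genes, of which 43.2% were higher in ko replicate 2. Among all tested genes those differences stood at percentiles 84.1, 88.9, 92.1 and 94.1. All 4 were also higher in het replicate 1 than in het replicate 2, by 0.09 to 0.26 in log2, where 49.4% of all tested genes were. As log2 ratios of FPKM, the differences in ko were 2.93 (Plekhg4) to 4.72 (Elmo3) times their counting error. Those in het were smaller, at 1.83 (Plekhg4), 2.74 (Slc9a5), 0.96 (Fhod1) and 0.90 (Elmo3) times, so the het differences of Fhod1 and Elmo3 lay within counting error. The stretch extended past Kctd19: of the 9 tested protein-coding genes from Elmo3 to Zdhhc1, Kctd19 left out, 8 were higher in ko replicate 2, and Lrrc36 was the exception. This stretch was picked after its values were seen and is a description of these libraries.

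**Figure D3:**
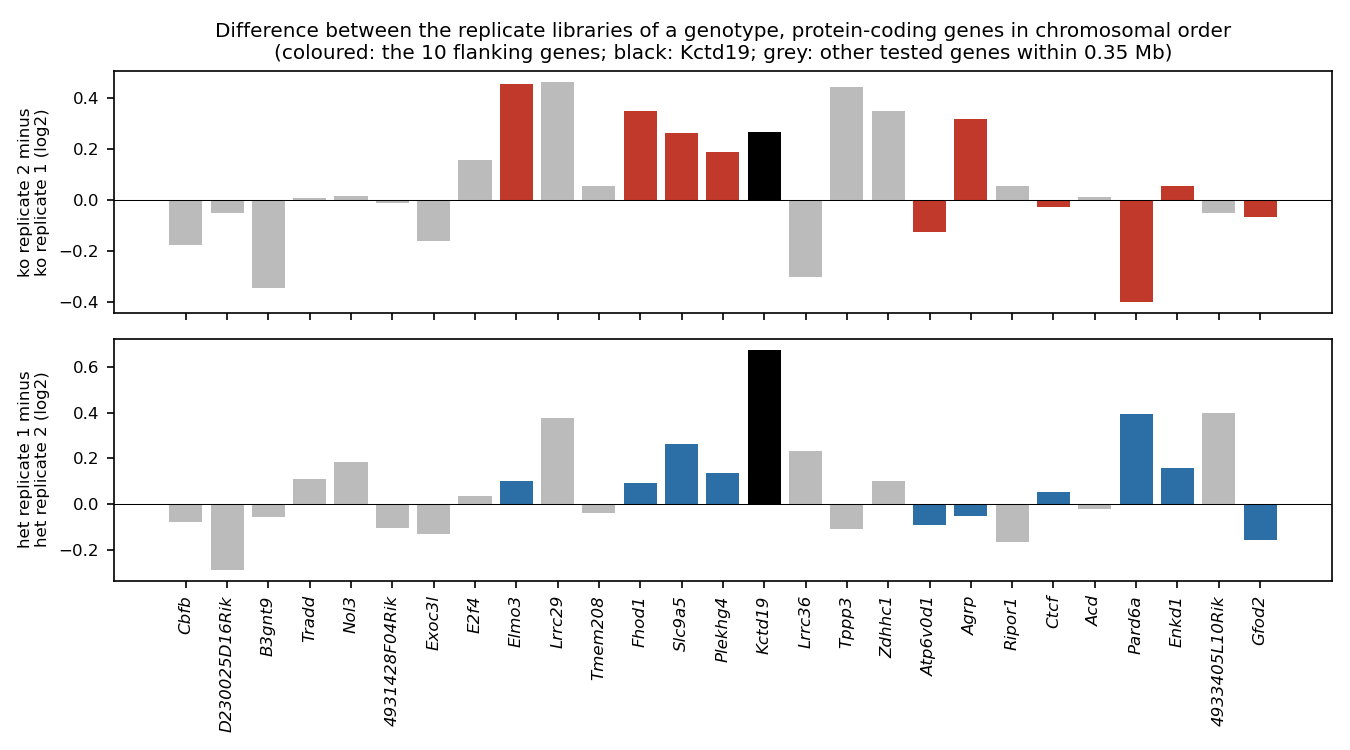
Difference in log2(FPKM + 1) between the replicates of a genotype for Kctd19 (black), the flanking genes (coloured) and other tested protein-coding genes within 0.35 Mb (grey), in chromosomal order. Top, ko replicate 2 minus ko replicate 1, with a run of positive bars from E2f4 to Zdhhc1 broken at Lrrc36; bottom, het replicate 1 minus het replicate 2, with the tallest bar at Kctd19 (0.68).

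On the other side, Atp6v0d1 (105524465 to 105566047, minus strand) had the smallest p of the 10. It encodes the d1 subunit of the membrane sector of the vacuolar proton pump, the V-ATPase that acidifies lysosomes and other compartments. It stood at 36.9 and 33.8 FPKM in ko against 28.8 and 30.7 FPKM in het, averaging 35.3 ± 2.23 in ko and 29.7 ± 1.34 in het (SD, n = 2 each), and both ko libraries exceeded both het libraries. The log2 fold change was 0.24 (SE 0.09, 95% interval 0.0072 to 0.47) and was not called by limma (unadjusted p = 0.0455, Benjamini-Hochberg adjusted p = 0.529) or by voom on whole reads (unadjusted p = 0.0348, Benjamini-Hochberg adjusted p = 0.403). With each library left out in turn it lay between 0.18 and 0.30. Its sign could not turn there, because both ko libraries exceeded both het libraries.

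Of the V-ATPase list, 19 of 24 subunits and accessory proteins were tested and 0 were called. Both ko libraries exceeded both het libraries in 6, Atp6v0d1 included, and lay below them in 3, against 22.1% and 19.7% of all tested genes, and the median log2 fold change was 0.09. The subunit with the smallest p was Atp6v1f, at 52.4 and 52.5 FPKM in ko against 45.2 and 41.7 FPKM in het (limma, Benjamini-Hochberg adjusted p = 0.489). Sertoli markers summed to 1321 and 1137 FPKM in ko and 831 and 1048 FPKM in het over 6 genes. Much of that sum was Clu and Cst12. Both ko libraries exceeded both het libraries in 4 of the 6, and the groups overlapped in Gata1 and Amh. Macrophage markers summed to 137 and 113 against 62.7 and 62.9 FPKM over 7 genes, much of it C1qa and C1qb. Both ko libraries exceeded both het libraries in 6 of the 7, and the groups overlapped in Mrc1. In either list 0 markers were at 0 in every library. The part of these markers in the level of Atp6v0d1 was not tested. In bulk testis, a change in the number of cells of a type and a change in RNA per cell cannot be told apart.

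Agrp (105566698 to 105637393, minus strand) is the agouti-related peptide, an antagonist at melanocortin receptors known from hypothalamic neurons. It stood at 2.90 and 3.86 FPKM in ko (57 reads each) and at 3.64 and 3.82 FPKM in het (54 and 47 reads). The groups overlapped, and the log2 fold change was -0.12 (SE 0.15, 95% interval -0.51 to 0.27). GENCODE gives this gene 3 transcripts, one spanning 1601 bp and the longest spanning 70696 bp and starting 825 bp inside Ctcf, and a value summed over exons does not tell which of them was present. Of its exon bases, 11.3% are shared with Ctcf on the opposite strand and the same 114 bases with the noncoding Gm5914 on its own strand. In the melanocortin list 3 of 9 matched genes were tested (Agrp, Pomc and Atrn), and 0 were called. Of the receptors that Agrp antagonises, Mc3r was listed at 0 FPKM in every library and Mc4r at no more than 0.117 FPKM. The attractin gene Atrn stood at 7.12 and 7.87 FPKM in ko against 8.08 and 7.87 FPKM in het.

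Ctcf (105636568 to 105682922, plus strand) was the steadiest of the 10. It stood at 19.6 and 19.2 FPKM in ko and at 19.9 and 19.2 FPKM in het, averaging 19.4 ± 0.263 in ko and 19.6 ± 0.530 in het (SD, n = 2 each). Ctcf had a log2 fold change of -0.014 (SE 0.08), with the narrowest 95% interval of the 10, from -0.22 to 0.19, which is a fold of 0.861 to 1.14. Its value rested on 1134 to 1847 reads per library. Ctcfl, the paralog of Ctcf in male germ cells, had levels of 5.41 and 5.10 FPKM in ko against 4.97 and 5.86 FPKM in het.

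In the list of Ctcf, cohesin and their loaders, 18 genes were tested and 0 were called, with a median log2 fold change of -0.12. Both ko libraries lay below both het libraries in 8 and above them in 1, against 19.7% and 22.1% of all tested genes. The cohesin regulator Pds5a had the smallest p, at 8.50 and 8.79 FPKM in ko against 10.4 and 10.2 FPKM in het (limma, Benjamini-Hochberg adjusted p = 0.529). Rec8, the meiotic cohesin subunit, was the gene above, at 14.9 and 15.0 FPKM in ko and 12.5 and 13.1 FPKM in het (limma, Benjamini-Hochberg adjusted p = 0.535).

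Pard6a (105701148 to 105703496, plus strand) encodes a scaffold of the polarity complex formed with Par3, atypical protein kinase C and Cdc42. It had the largest log2 fold change of the 10 and also the widest spread, at 5.30 and 3.77 FPKM in ko against 4.27 and 3.02 FPKM in het. Replicate 1 exceeded replicate 2 in both genotypes, and the groups overlapped. The log2 fold change was 0.25 (SE 0.21, 95% interval -0.29 to 0.80), and it ranged from 0.05 without ko replicate 1 to 0.45 without ko replicate 2. Pard6a starts 46 bp from the telomere-protection gene Acd on the opposite strand, whose log2 fold change was 0.11. Of the polarity list 9 of 13 genes were tested and 0 called, 1 with both ko libraries above both het libraries and 1 below. The gene below was Mpp5, at 13.6 and 14.6 FPKM in ko against 19.7 and 15.5 FPKM in het.

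Enkd1 (105703651 to 105708210, minus strand) was the flanking gene with both ko libraries below both het libraries. It encodes an enkurin domain protein of centrioles and cilia, known to bind the centriole cap protein encoded by Ccp110. It stood at 4.43 and 4.65 FPKM in ko against 5.71 and 5.01 FPKM in het, averaging 4.54 ± 0.156 in ko and 5.36 ± 0.494 in het (SD, n = 2 each). Enkd1 had a log2 fold change of -0.20 (SE 0.11, 95% interval -0.48 to 0.09) and was not called (limma, Benjamini-Hochberg adjusted p = 0.635; voom on whole reads, Benjamini-Hochberg adjusted p = 0.579). Leaving out each library in turn gave -0.28 to -0.12, where the sign could not turn because the groups did not overlap. Its exons share 185 bases (5.06%) with the opposite-strand gene 4933405L10Rik, and how reads there were assigned is not given.

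All 6 genes of the centriole list around Enkd1 were tested, and limma and voom called 0. Both ko libraries lay below both het libraries in 5 of the 6, Enkd1 included, against 19.7% of all tested genes, and the groups overlapped in the other, Cep97. Ccp110 stood at 17.3 and 19.5 FPKM in ko against 30.0 and 23.2 FPKM in het (limma, Benjamini-Hochberg adjusted p = 0.472). Cep290, a protein of the ciliary transition zone, stood at 6.56 and 7.41 FPKM in ko against 10.1 and 8.81 FPKM in het (limma, Benjamini-Hochberg adjusted p = 0.471). Pachytene spermatocyte markers summed to 277 and 275 FPKM in ko and 483 and 309 FPKM in het over 8 genes, none at 0 in every library. Of the 5 tested, 4 had both ko libraries below both het libraries. Below the filter, Ccna1 had both ko libraries above both het libraries, and the groups overlapped in Pgk2 and Adam3. Much of that sum was Sycp3, whose groups overlapped, at 209 and 203 FPKM in ko and 265 and 198 FPKM in het. Limma called 0 of the 5, and voom called 3 lower, Piwil1 (log2 fold change -2.26), Ldhc (-2.14) and Spag6l (-2.17). Het replicate 1 was the highest library for Enkd1, Ccp110, Cep290 and that sum alike. The part of these markers in the levels was not tested.

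Gfod2 (105713854 to 105758664, minus strand), named for a glucose-fructose oxidoreductase-like domain, stood at 5.07 and 4.79 FPKM in ko and at 4.63 and 5.27 FPKM in het. The het libraries enclosed the ko libraries, and the log2 fold change was -0.0015 (SE 0.11, 95% interval -0.29 to 0.28). Its paralog Gfod1 was below the filter, at 0.336 and 0.314 FPKM in ko and 0.389 and 0.228 FPKM in het.

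**Figure D4:**
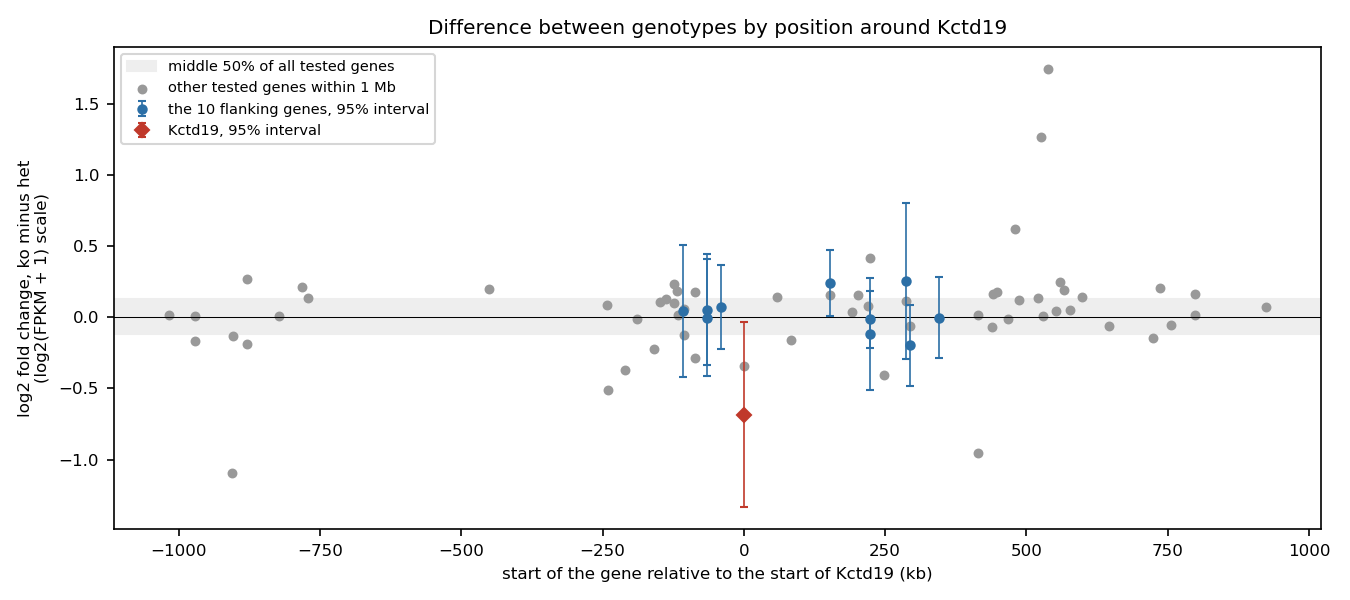
Log2 fold change (ko minus het, log2(FPKM + 1) scale) against the start of each tested gene relative to that of Kctd19 in kb. Blue points are the 10 flanking genes and the red diamond Kctd19, both with 95% limma intervals, and grey points are the other tested genes within 1 Mb. The grey band runs from the lower to the upper quartile of all tested genes, -0.12 to 0.13. Of the 10 intervals, that of Atp6v0d1 excludes 0.

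The families of the genes on the low-coordinate side gave no call either. Sodium-proton exchangers had 7 of 12 genes tested, with Slc9b1 at 2.64 and 2.42 FPKM in ko against 3.91 and 3.32 FPKM in het. Of the formins, 10 of 13 were tested, among them Diaph3 at 4.77 and 4.31 FPKM in ko against 6.33 and 6.16 FPKM in het and Fmnl1 at 2.66 and 3.03 against 2.01 and 2.44 FPKM. Elmo and Dock genes with their Rac targets had 9 of 11 tested, with Elmo2 at 7.37 and 7.09 FPKM in ko against 6.46 and 6.60 FPKM in het and Rac2 at 1.44 and 1.30 against 0.749 and 1.22 FPKM. In the Plekhg family 5 of 6 were tested, with Plekhg5 at 11.7 and 11.6 FPKM in ko against 9.65 and 10.8 FPKM in het and Plekhg1 at 10.3 and 9.06 against 10.3 and 10.8 FPKM. Over all lists of this kind, with the flanking genes left out, 77 genes were tested and limma and voom called 0, while in limma an unadjusted p under 0.05 was met by 2 genes higher in ko and 6 lower, beside the background of 9.31%.

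The other annotated genes of the neighbourhood were examined in the same way. Of the 39 within 0.35 Mb that are not among the 10, 26 were tested, and limma and voom called 0. An unadjusted p under 0.05 was met by 1 in limma and 0 in voom, against 9.31% of all tested genes in limma and 1911 of 17446 in voom. Both ko libraries exceeded both het libraries in 8 and lay below them in 3, against 22.1% and 19.7% of all tested genes. The gene with the smallest p was the noncoding Gm5914, which starts inside Ctcf on the opposite strand, at 3.63 and 3.90 FPKM in ko (36 and 29 reads) against 2.54 and 2.58 FPKM in het (19 and 16 reads) (limma, Benjamini-Hochberg adjusted p = 0.451). Next in order of p were Tmem208 (18.3 and 19.1 FPKM in ko, 16.2 and 16.7 FPKM in het), Exoc3l (21.1 and 18.8 against 16.6 and 18.3 FPKM) and the antisense Gm20163 (22.7 and 17.7 against 17.6 and 16.3 FPKM).

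Lrrc36 starts nearest to Kctd19, 69 bp away on the opposite strand, so the pair is back to back. It stood at 1.39 and 0.942 FPKM in ko (69 and 35 reads) and at 1.96 and 1.52 FPKM in het (73 and 47 reads). Both ko libraries lay below both het libraries, as for Kctd19, and the log2 fold change of -0.34 (SE 0.21) was not called (limma, Benjamini-Hochberg adjusted p = 0.664; voom on whole reads, Benjamini-Hochberg adjusted p = 0.541). Beyond it, Tppp3 stood at 7.80 and 11.0 FPKM in ko against 7.98 and 8.68 FPKM in het, and Zdhhc1 at 9.26 and 12.1 against 12.4 and 11.5 FPKM. Their log2 fold changes of 0.14 and -0.16 were not called.

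Within 1 Mb, 71 genes were tested and 1 was called by limma and by voom, against 0.218% and 1.39% of all tested genes. It was Psmb10, an immunoproteasome subunit 522 kb from Kctd19, with levels of 18.4 and 17.7 FPKM in ko against 6.93 and 6.85 FPKM in het (log2 fold change 1.27, SE 0.08, limma, Benjamini-Hochberg adjusted p = 0.0282). The 10 interferon response genes were listed with earlier results of these data known, so their count of calls is a description. Voom called all 10 higher, against 1.39% of all tested genes in either direction. Limma called 7 higher, against 0.207% of all tested genes, and did not call the other 3 (Ifit1, Isg15 and Ifit3). With any library left out, or with no filter on low values, limma called 0 genes in all, so that these calls and that of Psmb10 were lost.

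**Figure D5:**
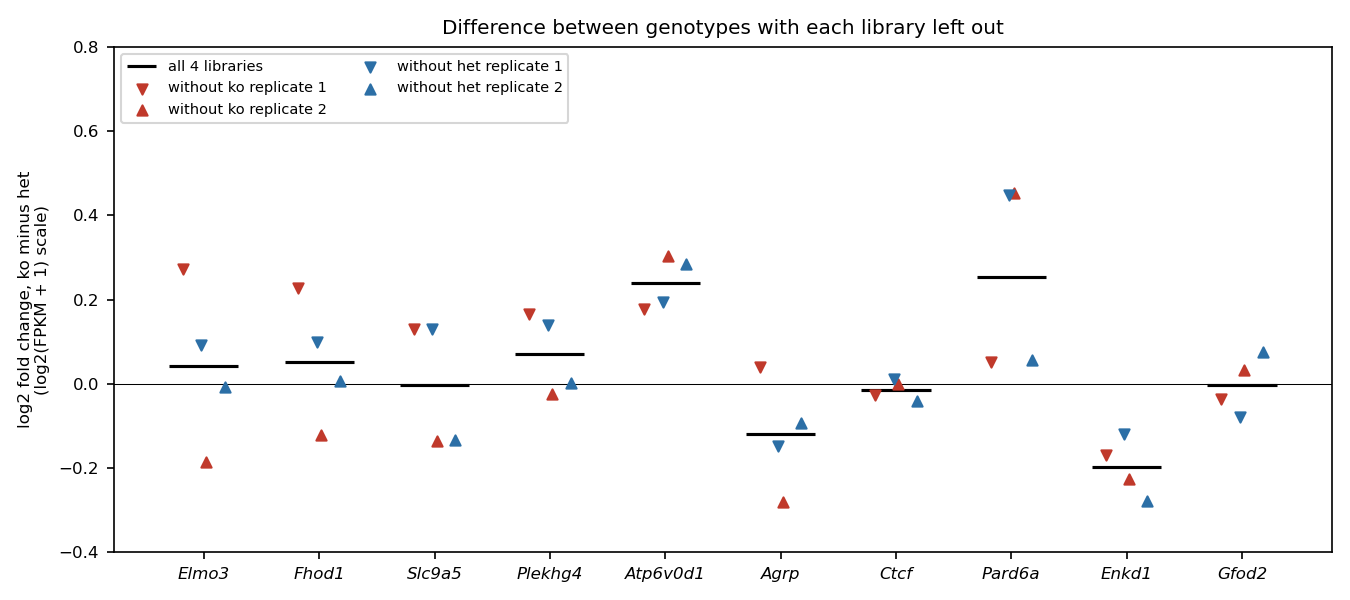
Log2 fold change of each flanking gene (ko minus het, log2(FPKM + 1) scale) with all 4 libraries (black line) and with each library left out (red triangles, a ko library left out; blue triangles, a het library left out). Atp6v0d1 and Pard6a stay above 0 and Enkd1 below 0 in all of these, and the other 7 genes cross 0. For Atp6v0d1 and Enkd1, whose groups do not overlap, leaving out a library cannot turn the sign.

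The direction of the fold change turned in 7 of the 10 genes when a single library was left out. Elmo3 moved to 0.27 without ko replicate 1 and to -0.19 without ko replicate 2, and Fhod1 to 0.23 and -0.12. For Slc9a5 the values were 0.13 without ko replicate 1 or het replicate 1 and -0.14 without ko replicate 2. Each of these fits leaves 1 library in a group, so only the size and direction of the fold change are read.

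Depth ranged from 12155089 to 19430364 assigned reads per library. The markers of the labelled tissue were present: Sertoli, Leydig, spermatogonial and spermatocyte lists were all detected, while 5 markers of brain and adrenal summed to 0.909 and 0.918 FPKM in ko and 1.65 and 1.13 FPKM in het. Spermatogonial markers summed to 191 and 168 FPKM in ko against 158 and 164 FPKM in het. Both ko libraries exceeded both het libraries in 3 of these 6 (22.1% of all tested genes), and the groups overlapped in the other 3. Leydig markers summed to 193 and 151 against 149 and 139 FPKM, but the groups overlapped in all 6 genes. Peritubular and vascular markers summed to 238 and 221 against 246 and 235 FPKM, much of it Acta2, whose groups overlapped. In the other 5 of these 6 genes both ko libraries lay below both het libraries, against 19.7% of all tested genes.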

How the data were processed

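Poly(A) RNA of 2 ko and 2 het P14 testes was measured. The authors deposited 1 table of FPKM per library, per the file headers. The submitters' processing notes name CASAVA 1.9, STAR 2.6.1a, featureCounts, edgeR and GRCm38 without role or setting. The sources used here give neither an annotation release nor a strand setting. How reads were assigned where exons of opposite strands overlap is therefore not known.

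Symbols were matched to GENCODE M21 for position and exon length (96.0% of 55401 rows). FPKM times exon length moved in steps of 1 read: of values up to 20 reads, 99.2% to 99.3% were whole within 0.02, which gave the reads per gene and the assigned reads. Between replicates the mean chi-square per gene was 19.7 for ko and 6.29 for het, above counting error, so each library counted as its own sample.

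Genes averaging at least 1 FPKM were kept, and log2(FPKM + 1) was fitted by genotype in limma 3.58.1 (R 4.3.3, trend), with Benjamini-Hochberg adjustment over all 17905 genes and calls at an adjusted p under 0.05. The log2(FPKM + 1) scale understates changes of low genes. The code was tested on simulated reads. The flanking genes, lists and tests were chosen with earlier results of these data known. Named genes were the 10, Kctd19, the nearest 3 tested genes on each side, the 4 others within 0.35 Mb with the smallest p, and up to 2 per list by smallest p. The values of 1 gene chosen by this rule are not reported here. Acd, Acta2, Cep97, Ctcfl, Gfod1, Mc3r, Mc4r, Pomc, Psmb10 and the interferon, spermatocyte, Sertoli and macrophage genes named were chosen after their values were seen. Alternatives were another pseudocount, leaving out the filter, a replicate block, leaving out each library, voom on whole reads, quantile and median-of-ratios scaling, protein-coding genes only and a 1 Mb window. Counting errors assume that each read is an independent molecule.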

Additional observations from a re-analysis of the deposited data

How the results depend on the processing

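Of the 10 flanking genes limma called 0 under every alternative run: a pseudocount of 0.1, no filter, the replicate block, each library left out, voom on whole reads, quantile and median-of-ratios scaling and protein-coding genes only. The same held for tested genes within 0.35 Mb of Kctd19, and widening the window to 1 Mb gave 1. Over all genes the count of calls moved more: 39 in the fit reported, 0 with no filter, 15 with the replicate block, 243 with voom on whole reads, 108 among protein-coding genes, and 0 to 0 with each library left out. The cause of these shifts was not tested, apart from the fewer genes or libraries entering some fits.

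Leaving out each library in turn gave log2 fold changes of -0.024 to 0.17 for Plekhg4, -0.14 to 0.13 for Slc9a5, -0.12 to 0.23 for Fhod1, -0.19 to 0.27 for Elmo3, -0.28 to 0.040 for Agrp, -0.040 to 0.013 for Ctcf and -0.079 to 0.076 for Gfod2, each turning its sign. Slc9a5 also turned with quantile normalization (0.016), and Gfod2 with voom on whole reads (0.0083) and quantile normalization (0.0065). Over 11 genes and 11 alternatives, 108 of 121 values kept direction and 13 turned. Kctd19 ranged from -1.02 to -0.35 with each library left out. For Atp6v0d1, Enkd1 and Kctd19, whose groups did not overlap, leaving out a library could not turn the sign.

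The labels do not say whether libraries of the same replicate number belong together. Over 17905 genes the difference between replicates correlated at -0.03 between genotypes, which with 2 libraries per genotype does not settle it. The block changed no call among the flanking genes. Depth limits Agrp and Pard6a most, with 47 to 163 reads per library.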
